A study of Mus musculus with 32 samples.

Results

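Cxcr2, Cxcr3, Cxcr4, Cxcr5, Cxcr6, Cx3cr1 and Ccrl2 are 7 genes of 35968 in the deposited transcript tables, and were taken from a fixed list of CXC chemokine receptors and relatives. Each gene's estimated counts and its TPM (transcript abundance scaled for length and library total) were summed over its transcripts in 32 RNA sequencing libraries. All 7 passed the filter on low counts.

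Chemokine receptors are proteins with repeated membrane spans that couple to inhibitory G proteins and steer cells along gradients of chemokines, small secreted proteins. Cxcr3 binds Cxcl9, Cxcl10 and Cxcl11 and marks T helper 1 (Th1) type cells, Cxcr4 binds Cxcl12, Cxcr5 binds Cxcl13 and guides cells to B cell follicles, and Cxcr6 binds Cxcl16, a chemokine displayed on liver sinusoids. Cx3cr1 binds Cx3cl1 and marks effector T cells and many myeloid cells, Cxcr2 binds Cxcl1, Cxcl2 and related chemokines and is best known on neutrophils, and Ccrl2 is an atypical receptor that binds the chemoattractant chemerin (Rarres2) without known G protein signalling.

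The libraries came from male C57BL/6 mice of the genotype Foxp3GFP, which control and treated mice carried alike. Sorting by TCRb, CD4 and the Foxp3 reporter gave regulatory T cells (Treg, Foxp3+) and Foxp3- conventional cells (Tconv) from liver and spleen of control mice or of mice given carbon tetrachloride (CCl4), a liver toxin used to produce injury and fibrosis. The 4 populations were each represented by 3 libraries of control mice and 5 of treated mice, in 8 groups. Age, dose, duration and vehicle were not given in the sources used here, nor whether a group's libraries are of different mice. Every p-value below therefore rests on spread among samples that may be technical.

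Library totals ran from 24513124 to 75292019 estimated counts. The summed level of 4 Treg markers (Foxp3, Ikzf2, Il2ra and Ctla4) lay between 2436 and 5160 CPM (counts relative to the library total, scaled by the trimmed mean of M values, TMM) in Treg libraries and between 36.7 and 527 in Tconv libraries. In both cell types, spleen controls 2 and 3 stood apart: the immediate early gene Fos was between 19.4 and 26.4 CPM there and between 418 and 1116 in the other 28 libraries. Results that involve spleen controls were therefore also taken without these 4 libraries, a choice made with earlier results of these data known. In sorted bulk samples, fewer cells that express a gene and less RNA per cell cannot be told apart.

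Of the 7 genes, 6 had an entry among RefSeq promoter sequences (GRCm38.p6), and Cxcr5 did not. The 250 bases before the annotated start are shown for Ccrl2 and Cxcr6, the receptor called in 3 of the 4 populations after CCl4 and the one whose liver Treg response was called against both other responses tested. The windows are chr9:111057519-111057768 for Ccrl2 (minus strand) and chr9:123806227-123806476 for Cxcr6 (plus strand), each read 5′ to 3′ on the gene's strand, with matches to the motifs below in capitals.
Ccrl2: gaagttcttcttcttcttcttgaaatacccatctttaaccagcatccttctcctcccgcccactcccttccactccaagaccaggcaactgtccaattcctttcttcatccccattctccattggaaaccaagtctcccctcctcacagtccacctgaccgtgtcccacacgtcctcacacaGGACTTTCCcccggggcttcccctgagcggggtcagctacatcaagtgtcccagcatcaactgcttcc
Cxcr6: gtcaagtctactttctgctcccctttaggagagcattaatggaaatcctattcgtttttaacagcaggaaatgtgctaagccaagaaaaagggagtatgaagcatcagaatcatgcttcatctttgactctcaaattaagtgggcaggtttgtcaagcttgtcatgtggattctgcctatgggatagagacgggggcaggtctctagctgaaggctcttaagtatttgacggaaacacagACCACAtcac

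The capitals mark a kB motif (GGANTTTCC, bound by NF-kB proteins) in Ccrl2, with 59 bases between it and the start, and a RUNX motif (TGTGGT) read on the opposite strand in Cxcr6, with 4 bases between. The motifs were searched on both strands, and no matches overlapped in these windows. Of 32851 RefSeq promoter windows of this length, 1.07% held the kB motif and 14.0% the RUNX motif. Cxcr3 and Cx3cr1 also held the RUNX motif, while Cxcr4 held none of the 8 motifs searched. The ETS motif (GGAAGT) was in Cxcr2 and Cxcr3 and in 19.7% of all windows. The KLF motif (CCACCC) was in Cxcr2 and Cx3cr1 and in 28.1% of windows. At its 2 other RefSeq starts Ccrl2 held the T-box motif (GGTGTGA), found in 3.33% of windows, the GATA motif (AGATAA), found in 9.99%, and the KLF motif. The AP-1 motif (TGANTCA), present in 6.75% of windows, was in no window of these receptors. Neither was the CRE motif (TGACGTCA), present in 1.55% of windows. A match describes the letters of the window and is no measure of binding.

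Cxcr3 was the most abundant of the receptors in 3 of the 4 populations on the TPM scale, and Cxcr6 in liver Tconv. Cxcr3, the Th1-type receptor, averaged 244 ± 43.8 TPM (mean ± SD, n = 8) in liver Treg, 173 ± 29.1 in spleen Treg and 113 ± 26.1 in spleen Tconv. In liver Tconv, Cxcr6 averaged 368 ± 146 TPM and Cxcr3 249 ± 58.7. Cxcr2 averaged between 0.333 and 0.824 TPM and Cx3cr1 between 0.55 and 3.73 TPM over the 4 populations.

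**Figure D1:**
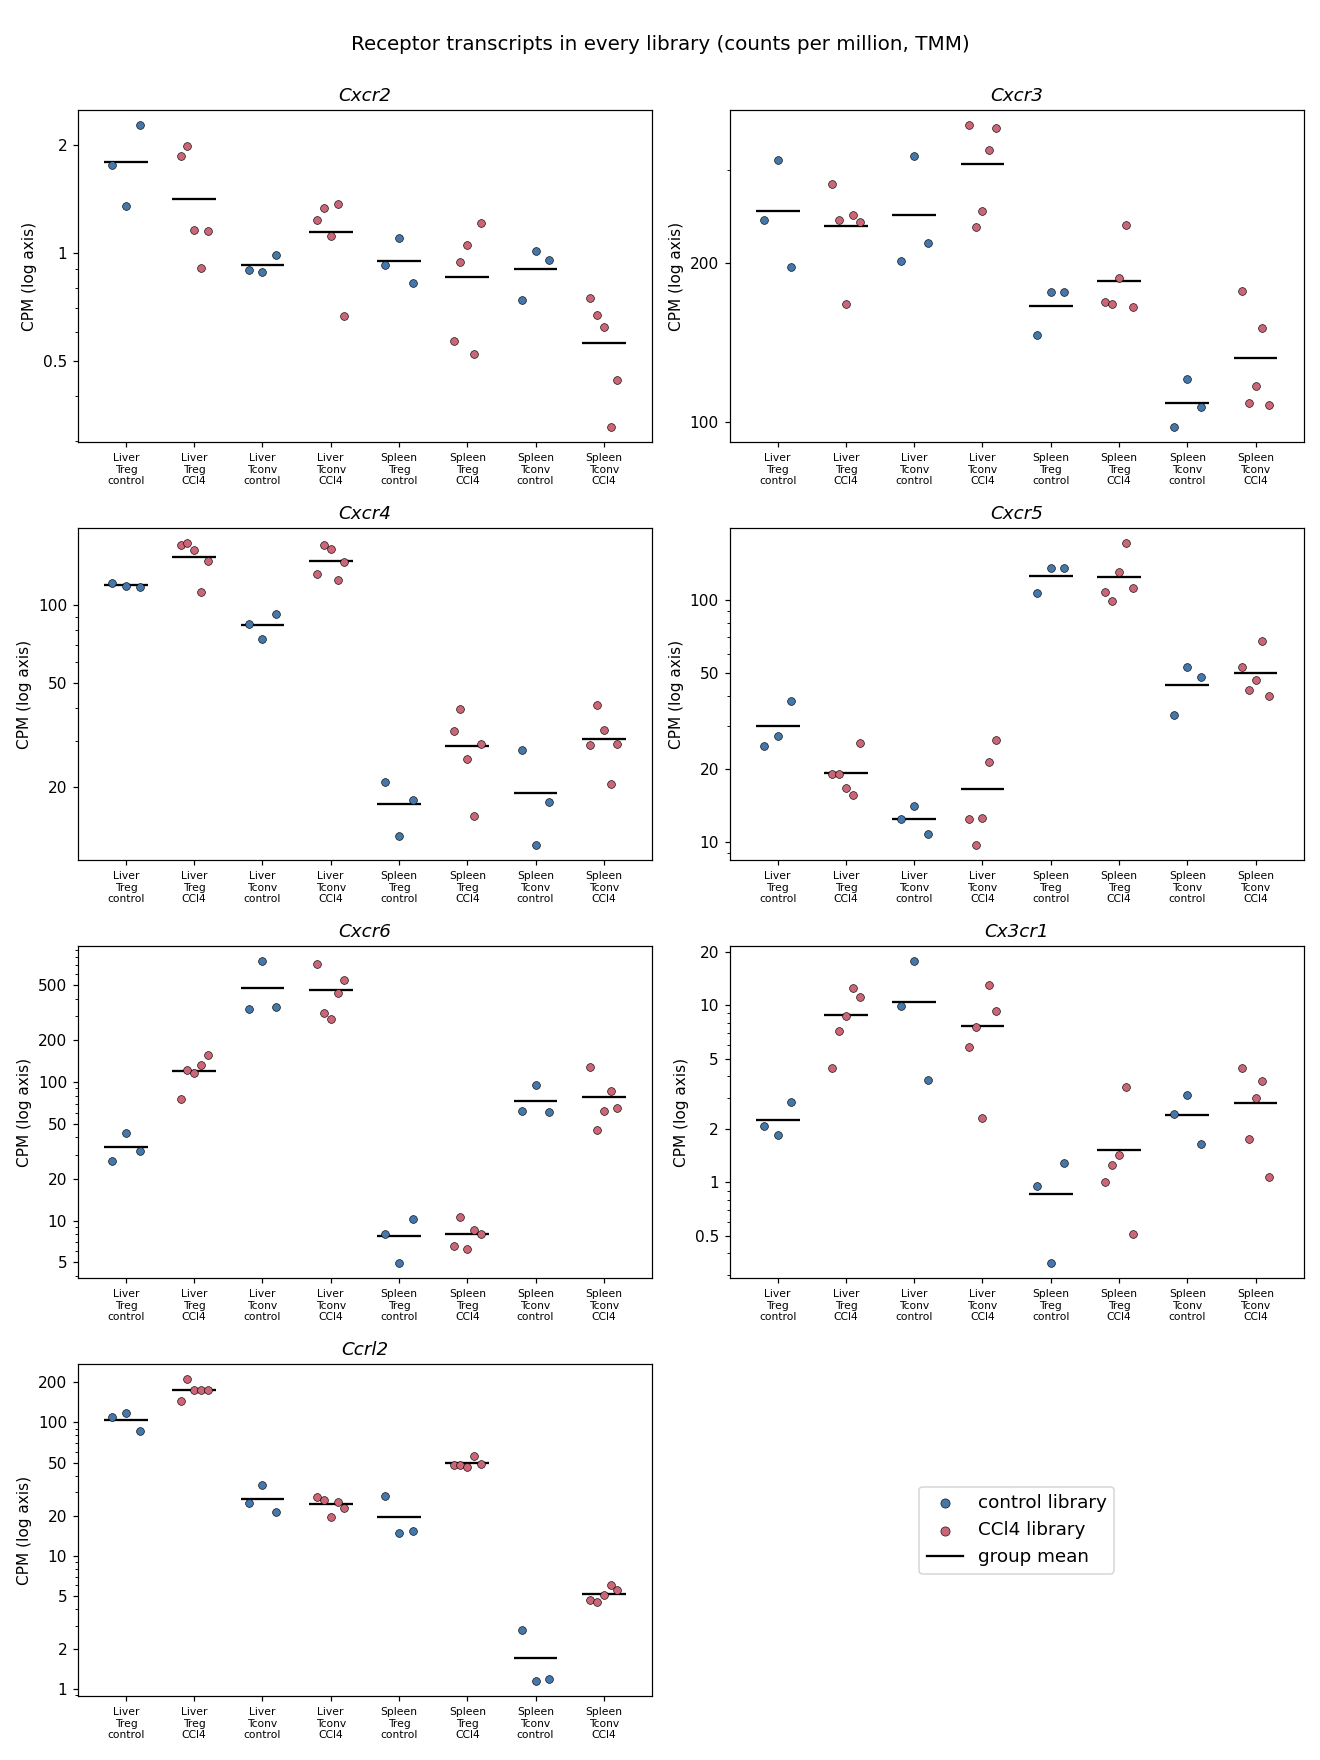
CPM (log axis) of each receptor gene in every library, by tissue, cell type and treatment, with a bar at the group mean. Cxcr5 is highest in spleen Treg (99.3 to 171 CPM), Cxcr6 in liver Tconv (285 to 745 CPM) and Ccrl2 in liver Treg (86.7 to 209.8 CPM).

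Each population had its own mix of receptor transcripts. As a share of the TPM summed over the 7 genes, Cxcr6 held 51.2 ± 7.09% in control liver Tconv (n = 3) and 5.55 ± 0.834% in control liver Treg (n = 3). Ccrl2 held 17.9 ± 1.21% in control liver Treg and 0.796 ± 0.543% in control spleen Tconv. Cxcr5 held 32.3 ± 1.69% in control spleen Treg and 1.31 ± 0.307% in control liver Tconv. Shares of a whole move against each other, so they are a description without a test. The sum itself averaged 548 ± 67.8 TPM in control liver Treg and 713 ± 235 in control liver Tconv, against 308 ± 32.3 and 219 ± 32.1 in the same cells of spleen.

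**Figure D2:**
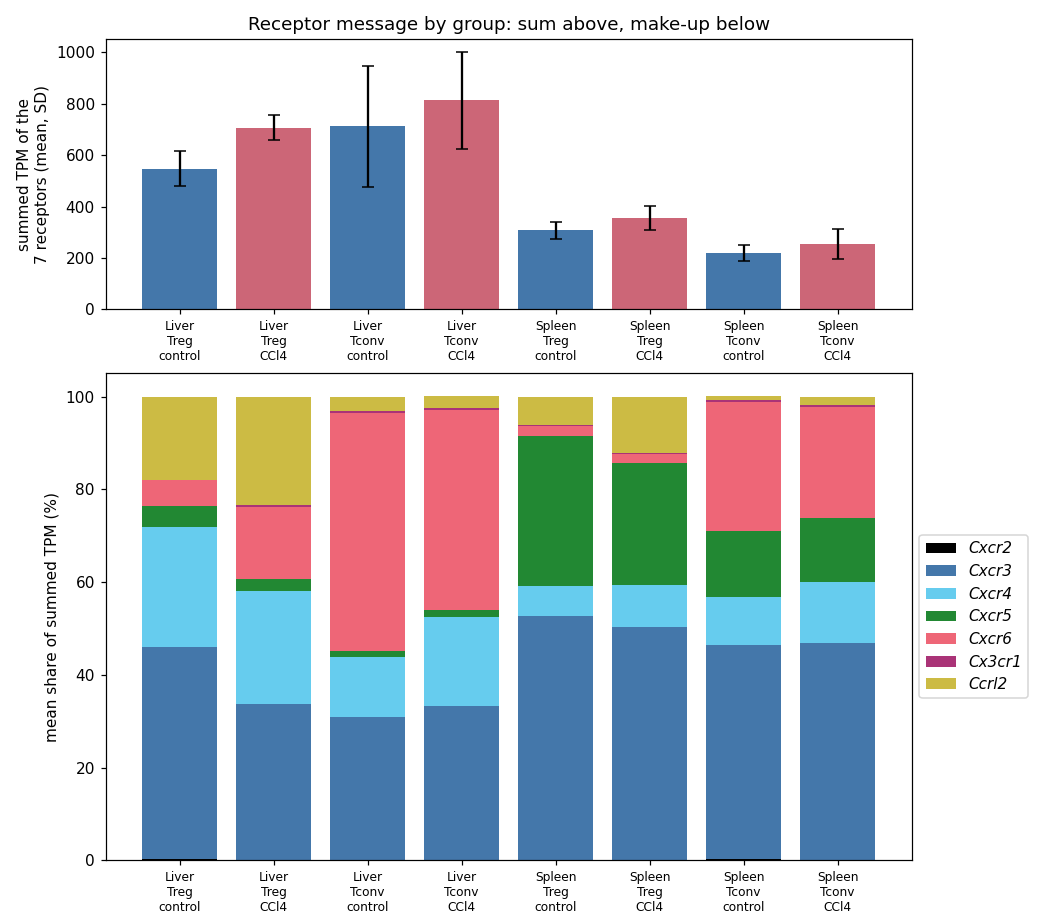
Upper bars give the summed TPM of the 7 receptors by group (mean, error bars SD, n = 3 control and 5 CCl4 libraries), and lower bars the mean share of each receptor in that sum (%). Cxcr6 takes 15.5% of the sum in liver Treg after CCl4 and 5.55% in their controls.

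Liver cells carried more Cxcr6, Cxcr4, Ccrl2, Cx3cr1 and Cxcr3 and less Cxcr5 than spleen cells, in Treg and in Tconv alike. Averaged over both treatments, all 7 receptors passed the edgeR test in Treg (6 higher in liver, 1 lower), where 60.6% of all genes tested passed, and 6 of 7 passed in Tconv (5 higher, 1 lower), where 55.0% passed. In both treatments, no liver value overlapped a spleen value for 5 receptors in Treg (29.1% of all genes) and for 5 in Tconv (25.7%). With shares of this size across the genome, the count of receptors called is no result about the receptors, and the sizes of the differences are given instead.

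Cxcr4, the receptor for Cxcl12, had a lowest, median and highest level of 112, 134 and 172 CPM in liver Treg and of 12.9, 23.2 and 39.9 CPM in spleen Treg. In Tconv the same values were 73.9, 128 and 170.0 CPM in liver and 11.9, 28.2 and 41 CPM in spleen. Every liver library thus lay above every spleen library. The log2 fold change was 2.61 for Treg (SE 0.18, adjusted p = 4.26e-13), with 2.19 for Tconv (SE 0.17, adjusted p = 1.33e-11), and the difference between the cell types was not called (0.41, SE 0.23, adjusted p = 0.245).

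Cxcr6, the receptor for Cxcl16, ran from 27 to 157 CPM in liver Treg (median 95.7) and from 4.92 to 10.6 CPM in spleen Treg (median 7.99). In Tconv it ran from 285 to 745 CPM in liver (median 395) and from 45.3 to 129 CPM in spleen (median 63.9). Liver and spleen values did not overlap in either cell type. The log2 fold change was 3.04 for Treg (SE 0.25, adjusted p = 3.22e-11), with 2.64 for Tconv (SE 0.24, adjusted p = 2.24e-10). In Treg the liver and spleen difference was 2.14 (SE 0.39) among control libraries and 3.93 (SE 0.32) among CCl4 libraries. The difference between the cell types was not called (0.39, SE 0.33, adjusted p = 0.451). Of 44 alternatives 1 called it, the CCl4 libraries alone (1.36, adjusted p = 0.019), while the control libraries alone gave -0.57 (adjusted p = 0.61), within a range of 0.019 to 0.849.

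Ccrl2, the atypical chemerin receptor, was highest in liver Treg and lowest in spleen Tconv. Its lowest, median and highest values were 86.7, 159.7 and 209.8 CPM in liver Treg, 14.9, 47.4 and 55.9 in spleen Treg, 19.5, 25 and 34 in liver Tconv and 1.15, 4.59 and 6.07 in spleen Tconv. The liver and spleen difference was larger in Tconv (log2 fold change 3.07, SE 0.16, adjusted p = 2.27e-15) than in Treg (2.13, SE 0.14, adjusted p = 4.17e-13), and the difference between the cell types passed the test (-0.94, SE 0.21, adjusted p = 0.00158), as did 19.4% of all genes. Among CCl4 libraries alone that difference was -0.40 (adjusted p = 0.321), and among control libraries, which include those of low Fos, it was -1.48 (adjusted p = 0.00747). Over its 44 alternatives the adjusted p ran from 4.2e-05 to 0.321.

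Cxcr5, the follicular receptor, was the member that was lower in liver. Its lowest, median and highest values were 15.7, 22 and 38.1 CPM in liver Treg against 99.3, 121 and 171 in spleen Treg, and 9.7, 12.5 and 26.3 in liver Tconv against 33.3, 47.3 and 67.4 in spleen Tconv. Liver values lay below spleen values in both cell types. The log2 fold change was -2.38 for Treg (SE 0.18, adjusted p = 4.34e-12), with -1.72 for Tconv (SE 0.18, adjusted p = 3.01e-09). The difference between the cell types was not called (-0.66, SE 0.24, adjusted p = 0.057), although 15 of 44 alternatives called it, among them limma-voom, DESeq2 and length offsets, within a range of 0.0126 to 0.824. It was -1.09 among CCl4 libraries (adjusted p = 0.0126) and -0.22 among control libraries (adjusted p = 0.824). Of 12 follicular helper genes fixed as a list, 4 were higher and 4 lower in liver Treg than in spleen Treg (median log2 fold change -0.13, against 0.04 over all genes), and 5 were higher and 2 lower in Tconv. The costimulator gene Icos was higher in liver (1.73 in Treg, 2.96 in Tconv), while Cd200, which encodes a membrane glycoprotein, was lower (-0.80 and -0.83).

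Cxcr3 differed between the tissues by less than the receptors above. In Tconv it ran from 202 to 364 CPM in liver (median 284) and from 97.9 to 177 in spleen (median 113), with no overlap (log2 fold change 1.20, SE 0.14, adjusted p = 1.5e-08). In Treg it ran from 167 to 313 CPM in liver (median 241) and from 146 to 236 in spleen (median 172), with overlapping values (0.47, SE 0.13, adjusted p = 0.00342). Among CCl4 libraries alone the Treg value was 0.35 (adjusted p = 0.0731), the highest p of 29 alternatives, of which the lowest was 8.88e-05. The Treg difference was smaller than the Tconv difference (-0.73, SE 0.19, adjusted p = 0.00612). The call of this contrast was lost without the 4 spleen controls of low Fos (-0.71, adjusted p = 0.085) and with control libraries alone (-0.59, adjusted p = 0.275), and over its 44 alternatives the adjusted p ran from 0.000543 to 0.275. The Th1 list, which Cxcr3 is not in, had 9 of 12 members higher and 1 lower in liver Treg (median 1.11) and 11 of 12 higher in liver Tconv (median 2.37), against a median of 0.04 over all genes in both. Its members of smallest adjusted p included Il18rap, a subunit of the interleukin 18 receptor (1.91 in Treg, 1.99 in Tconv), and Gzmb, the protease of cytotoxic granules (5.06 in Tconv).

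Cx3cr1, at 1.86 to 12.6 CPM in liver Treg and 0.35 to 3.45 in spleen Treg, differed by a log2 fold change of 1.96 (SE 0.41, adjusted p = 0.000143), and by 1.79 in Tconv (SE 0.39, adjusted p = 0.000303), where it ran from 2.32 to 17.7 CPM in liver and from 1.07 to 4.44 in spleen. In control libraries alone the Treg difference was not called (1.40, adjusted p = 0.0791), and the adjusted p ran from 5.73e-07 to 0.0791 over 28 alternatives. Cxcr2, the neutrophil receptor, was at 0.908 to 2.26 CPM in liver Treg and 0.523 to 1.21 in spleen Treg (0.81, SE 0.23, adjusted p = 0.0039), with overlapping values, and was not called among control libraries alone (0.90, adjusted p = 0.0509), the highest p of 28 alternatives (lowest 0.00075). In Tconv Cxcr2 was not called (0.53, SE 0.24, adjusted p = 0.0604), although 6 of 28 alternatives called it, within a range of 0.00535 to 0.956. The lowest and the highest of these came from the CCl4 libraries alone (1.01) and the control libraries alone (0.04).

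**Figure D3:**
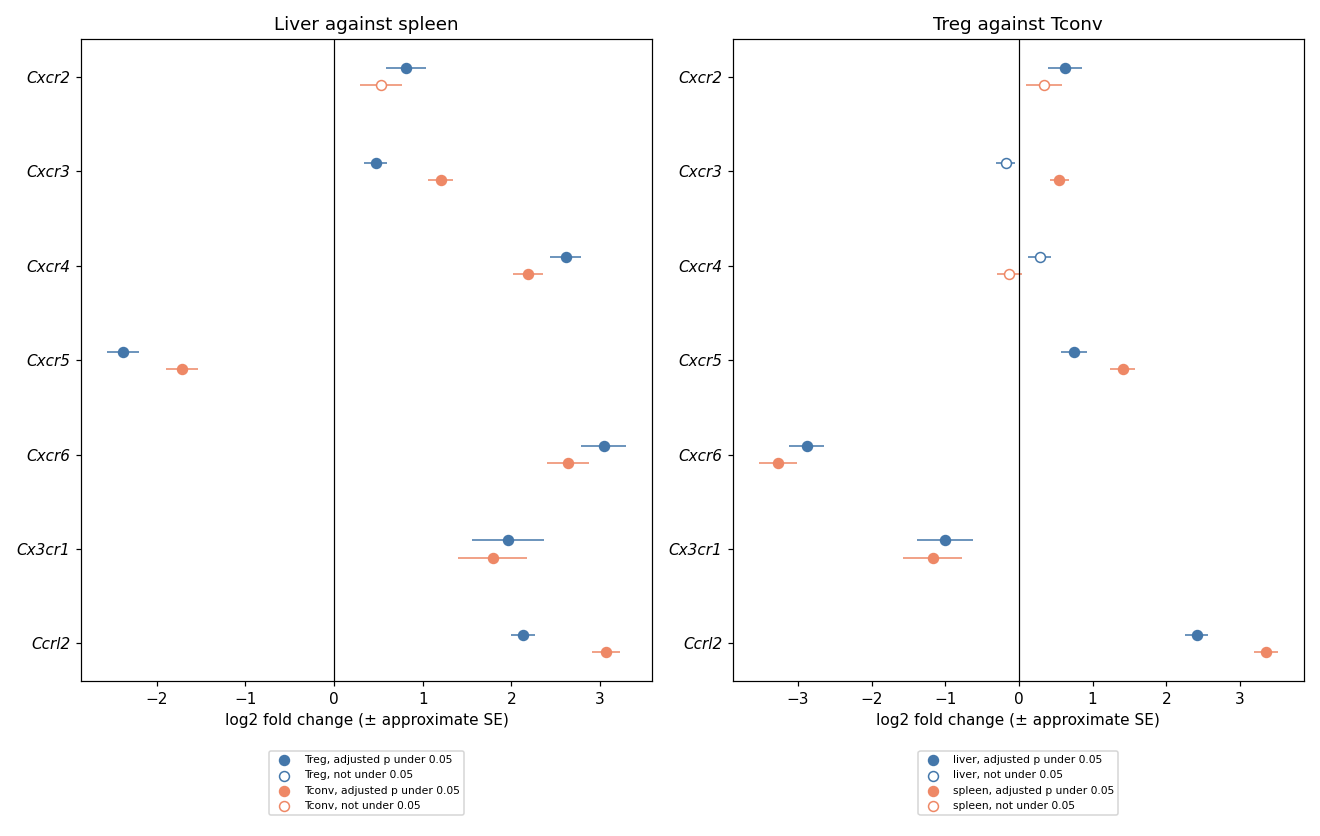
Log2 fold change of each receptor gene, liver against spleen (left) and Treg against Tconv (right), averaged over both treatments, with approximate standard errors as bars. Filled points have an adjusted p under 0.05. Cxcr5 lies left of 0 for the tissues, at -2.38 and -1.72, and Cxcr6 and Ccrl2 lie on opposite sides for the cell types, at -2.88 and 2.41 in liver.

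Treg and Tconv differed most in Ccrl2, which was higher in Treg, and in Cxcr6, which was higher in Tconv, in both tissues. Cxcr5 was also higher in Treg, and Cx3cr1 lower. In liver 5 of 7 receptors were called (3 higher in Treg, 2 lower), where 51.8% of all genes were, and in spleen 5 of 7 (3 higher, 2 lower), where 39.7% were. Values did not overlap in either treatment for 2 receptors in liver (23.5% of all genes) and 3 in spleen (19.6%).

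Ccrl2 exceeded the Tconv level by a log2 fold change of 2.41 in liver (SE 0.15, adjusted p = 2.55e-14) and 3.35 in spleen (SE 0.16, adjusted p = 2.91e-16). Cxcr6 was lower in Treg by -2.88 in liver (SE 0.24, adjusted p = 3.99e-11) and -3.27 in spleen (SE 0.26, adjusted p = 1.06e-11). Of the Th1 list, 10 of 12 genes were likewise lower in liver Treg than in liver Tconv and 2 higher (median log2 fold change -1.67, against 0.01 over all genes). Tbx21, the transcription factor of Th1 cells, differed by -2.71 and Il12rb2, a subunit of the interleukin 12 receptor, by -5.11.

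Cxcr5 was higher in Treg by 1.41 in spleen (SE 0.17, adjusted p = 9.18e-08), where values did not overlap, and by 0.75 in liver (SE 0.18, adjusted p = 0.000708), where they did. Within liver the Cxcr5 difference was 1.27 among control libraries (adjusted p = 0.000671) and 0.22 among CCl4 libraries (adjusted p = 0.423), over a range of 3.86e-05 to 0.423 for all 28 alternatives. Cxcr3 was higher in Treg in spleen (0.55, SE 0.13, adjusted p = 0.00146) and was not called in liver (-0.18, SE 0.13, adjusted p = 0.266). The spleen call of Cxcr3 was lost without the 4 controls of low Fos (0.53, adjusted p = 0.0721; range over 29 alternatives 7.39e-05 to 0.0721). By this edgeR fit Cxcr4 was called in neither tissue (0.28, SE 0.16, adjusted p = 0.154 in liver and -0.13, SE 0.17 in spleen). In liver 3 of 28 alternatives called Cxcr4 higher in Treg, within a range of adjusted p from 0.0127 to 0.856: a filter at a mean of 5 CPM, the block by treatment and sample number, and a fit of the compared libraries alone.

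Cx3cr1 was lower in Treg than in Tconv by -1.0 in liver (SE 0.38, adjusted p = 0.0293) and by -1.17 in spleen (SE 0.40, adjusted p = 0.0194). By treatment, the liver value was -2.22 among control libraries (adjusted p = 0.00643) and had the opposite sign, 0.21, among CCl4 libraries (adjusted p = 0.74). In spleen it was -1.48 among control libraries (adjusted p = 0.0991) and -0.86 among CCl4 libraries (adjusted p = 0.176), called in neither. The spleen call was lost without the 4 controls of low Fos (-1.11, adjusted p = 0.211), and in each tissue leaving out single libraries ended it. These were liver Treg controls 1 or 2, liver Treg CCl4 library 1, liver Tconv control 2 or liver Tconv CCl4 library 4 for the liver call (-0.69 to -0.97), and spleen Treg control 2 or spleen Tconv control 2 for the spleen call (-0.98 and -1.06). The adjusted p ran from 0.00611 to 0.74 over 27 alternatives in liver and from 0.00325 to 0.211 over 28 in spleen. In liver, Cxcr2 exceeded its Tconv level in Treg (0.63, SE 0.23, adjusted p = 0.0264), a call that ended without liver Treg control 3, liver Treg CCl4 library 2 or liver Tconv controls 1 or 2 (0.52 to 0.61), and among CCl4 libraries alone (0.30, adjusted p = 0.414). Its adjusted p ran from 0.0154 to 0.414 over 27 alternatives.

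After CCl4, Cxcr6, Cx3cr1 and Ccrl2 were called higher in liver Treg, and Ccrl2 in the spleen cells of both types. The spleen calls depended on the controls of low Fos. Without these, the log2 fold change of Ccrl2 was 0.82 in spleen Treg and 0.90 in spleen Tconv, with only control 1 left in each. The test called 3 of 7 receptors in liver Treg, all higher, where 14.9% of all genes were called. It called 1 of 7 in spleen Treg (1.18% of all genes) and 1 of 7 in spleen Tconv (1.07%), both times Ccrl2. None of 7 was called in liver Tconv (0.326% of all genes). Control and CCl4 values did not overlap for 3 receptors in liver Treg (19.1% of all genes), 1 in liver Tconv (6.65%), 1 in spleen Treg (10.9%) and 1 in spleen Tconv (8.82%).

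Cxcr6 in liver Treg was at 27, 42.7 and 31.7 CPM in the controls and at 75.3, 123, 116, 133 and 157 CPM in the CCl4 libraries. Every CCl4 library lay above the highest control. The log2 fold change was 1.84 (SE 0.34, adjusted p = 0.000333), and all 17 alternatives called it (adjusted p from 4.97e-06 to 0.0058). In liver Tconv the values were 339, 745 and 348 CPM in controls and 712, 314, 285, 441 and 549 after CCl4. These overlapped (-0.05, SE 0.31, adjusted p = 0.971). Spleen Treg stayed between 4.92 and 10.6 CPM in both treatments (0.04, SE 0.35), and spleen Tconv between 45.3 and 129 (0.09, SE 0.32).

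The effect of CCl4 on Cxcr6 in liver Treg exceeded that in liver Tconv (1.89, SE 0.45, adjusted p = 0.0129) and that in spleen Treg (1.80, SE 0.48, adjusted p = 0.0232). Of all genes, 3.65% and 5.48% passed these tests, and Cxcr6 was the 1 receptor of 7 that did in each. The first call ended without liver Treg control 1 (1.75, adjusted p = 0.056) or liver Tconv control 2 (1.41, adjusted p = 0.0886), with a range of 0.00427 to 0.0886 over 24 alternatives. The second ended without liver Treg controls 1 or 3 (1.66 and 1.75), spleen Treg control 3 (1.52), or the spleen controls of low Fos (1.85, adjusted p = 0.128), and with limma-voom (1.71, adjusted p = 0.206), the highest p of 25 alternatives.

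Genes of innate-like T cells, which also carry much Cxcr6, had these values beside it. Zbtb16, the transcription factor of natural killer T (NKT) cells, was at 15.1, 36.3 and 23.8 CPM in control liver Tconv and at 3.47, 2.94, 6.96, 3.19 and 2.36 CPM after CCl4 (log2 fold change -2.73, SE 0.61, adjusted p = 0.0409). In liver Treg, Zbtb16 was between 0.0275 and 1.64 CPM in all 8 libraries. The list of 8 NKT-like markers, of which T cells express several, summed in liver Treg to 898 to 1246 CPM for controls and 1283 to 1662 CPM after CCl4, and to 727 to 1329 and 608 to 1259 CPM in liver Tconv. The sum in liver Treg was nearly all Il2rb, which Treg cells express (1102 ± 183 CPM in controls and 1454 ± 140.1 CPM after CCl4). The median log2 fold change of the list there was -0.60, while the sum was higher after CCl4, and 1 gene was called higher (Xcl1, 0.0739 ± 0.0648 and 0.653 ± 0.345 CPM) and 0 lower. The part of such cells in the level of Cxcr6 was not tested.

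Cx3cr1 in liver Treg was at 2.08, 1.86 and 2.86 CPM in controls and at 4.45, 7.12, 8.71, 12.6 and 11.2 CPM after CCl4. Every treated library lay above the controls, at levels that stayed low (0.814 ± 0.288 and 3.79 ± 1.33 TPM). The log2 fold change was 1.96 (SE 0.58, adjusted p = 0.0206), and the call ended without control 1 (1.91, adjusted p = 0.0826) or control 2 (1.84, adjusted p = 0.0898), the highest p of 16 alternatives, of which the lowest was 0.0025. In liver Tconv it was at 9.98, 17.7 and 3.81 CPM in controls and at 5.84, 7.56, 2.32, 13 and 9.29 CPM after CCl4, with overlap (-0.47, SE 0.52, adjusted p = 0.766). The difference between these effects was not called (2.43, SE 0.77, adjusted p = 0.0778). Among myeloid cells that carry Cx3cr1, the 13 markers of monocytes, macrophages and Kupffer cells summed in liver Treg to 32.3 to 68.6 CPM for controls and 24.3 to 57.3 CPM after CCl4. The 8 dendritic cell markers, most of whose sum came from Zbtb46, summed to 18.7 to 25.1 CPM and 21.4 to 43.1 CPM. The part of such cells in the level of Cx3cr1 was not tested.

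Ccrl2 in liver Treg was at 109.9, 117 and 86.7 CPM in controls and at 144, 209.8, 176, 175 and 176 CPM after CCl4. The groups did not overlap (log2 fold change 0.75, SE 0.20, adjusted p = 0.00891). Leaving out control 3, the lowest, ended the call (0.63, adjusted p = 0.0693), which the other 16 alternatives kept (lowest 8.04e-05). In liver Tconv Ccrl2 was at 24.8, 34 and 21.2 CPM in controls and at 27.7, 26.4, 19.5, 25.2 and 22.8 CPM after CCl4, an overlap with no call (-0.14, SE 0.20, adjusted p = 0.828).

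In spleen Treg, Ccrl2 was at 28, 14.9 and 15.3 CPM in controls and at 48.1, 48, 46.7, 55.9 and 48.6 CPM after CCl4 (log2 fold change 1.35, SE 0.21, adjusted p = 0.00218). In spleen Tconv it was at 2.76, 1.15 and 1.2 CPM in controls and at 4.68, 4.5, 5.13, 6.07 and 5.57 CPM after CCl4 (1.54, SE 0.25, adjusted p = 0.00363). The low controls are libraries 2 and 3, which also had low Fos, and control 1 of each cell type lay between them and the treated libraries. Without libraries 2 and 3 the log2 fold change was 0.82 in Treg (adjusted p = 0.386) and 0.90 in Tconv (adjusted p = 0.829), and neither was called. Leaving out control 2 or control 3 alone also ended the call in Tconv (1.38 and 1.31, adjusted p = 0.0624 and 0.0881), as did a fit of these libraries alone (1.59, adjusted p = 0.0899). The adjusted p ran from 4.28e-08 to 0.386 over 18 alternatives in Treg and from 1.26e-08 to 0.829 in Tconv.

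**Figure D4:**
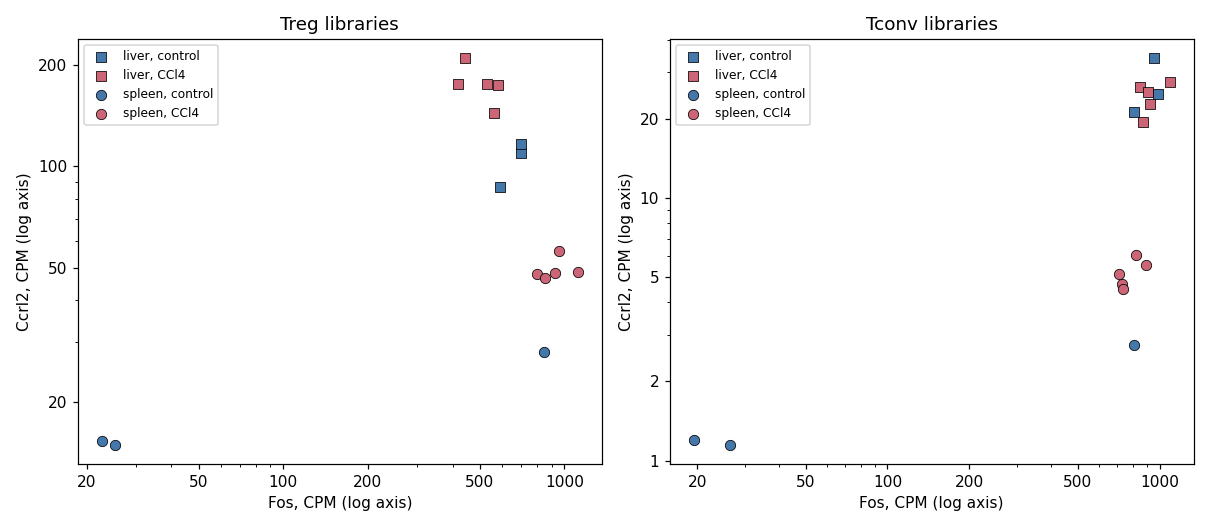
Ccrl2 against Fos in each library, both in CPM on log axes, for Treg (left) and Tconv (right), with squares for liver and circles for spleen. The 2 spleen controls of each cell type at the far left have 19.4 to 26.4 CPM of Fos and the lowest Ccrl2, at 14.9 and 15.3 CPM in Treg and 1.15 and 1.2 CPM in Tconv.

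Immediate early genes moved in the same spleen Treg comparison. Of 9 such genes 3 were called, all higher, in spleen Treg (median log2 fold change 1.43, against 0.00 over all genes), where 1.18% of all genes were called. In spleen Tconv 0 of 9 were called, with a median of 1.20 against 0.00, and in liver Treg 0 of 9 (median -0.00). The spleen controls of both cell types include those of low Fos. The genes called were Atf3 (2.60, adjusted p = 0.0142), Jun (1.27, adjusted p = 0.0402) and Ier2 (0.97, adjusted p = 0.0402), which encode transcription regulators. Their part in the Ccrl2 difference was not tested.

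The effect of CCl4 on Ccrl2 was lower in liver Tconv than in spleen Tconv (-1.68, SE 0.31, adjusted p = 0.0276), a test that 0.0874% of all genes passed. It was not called without spleen controls 2 and 3 (-1.03, adjusted p = 0.729), without either of spleen Tconv controls 2 (-1.51) and 3 (-1.44), or without liver Tconv control 2 (-1.46) or spleen Tconv CCl4 library 4 (-1.62), within a range of 2.7e-05 to 0.729 over 25 alternatives. In spleen, the effects on Treg and Tconv did not differ by the test for any of the 7 receptors (for Ccrl2 -0.19, SE 0.31). By edgeR 0 of 17159 genes (0%) passed there, 734 had an unadjusted p under 0.05, limma-voom called 0 and DESeq2 15. Myeloid markers moved with CCl4 in spleen Treg: the 13 monocyte, macrophage and Kupffer genes summed to 23.4 to 33.1 CPM in controls and 64.7 to 123 CPM after CCl4, and 12 neutrophil genes to 23 to 31.9 and 26.7 to 125 CPM. The neutrophil genes Retnlg, Mmp8 and Elane were at 0 in all 3 spleen Treg controls, and the Kupffer cell gene Vsig4 in all 8 spleen Treg libraries. In spleen Tconv the 13 genes summed to 14.1 to 20.6 CPM in controls and 23.8 to 49 CPM after CCl4, with Clec4f and Vsig4 at 0 in all 8 libraries, and the 12 neutrophil genes to 1.2 to 4.98 and 2.38 to 7.93 CPM, with Mmp8, Ltf and Elane at 0 in all 8. Ccrl2 is also expressed by myeloid cells, and the part of such cells in its level was not tested.

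**Figure D5:**
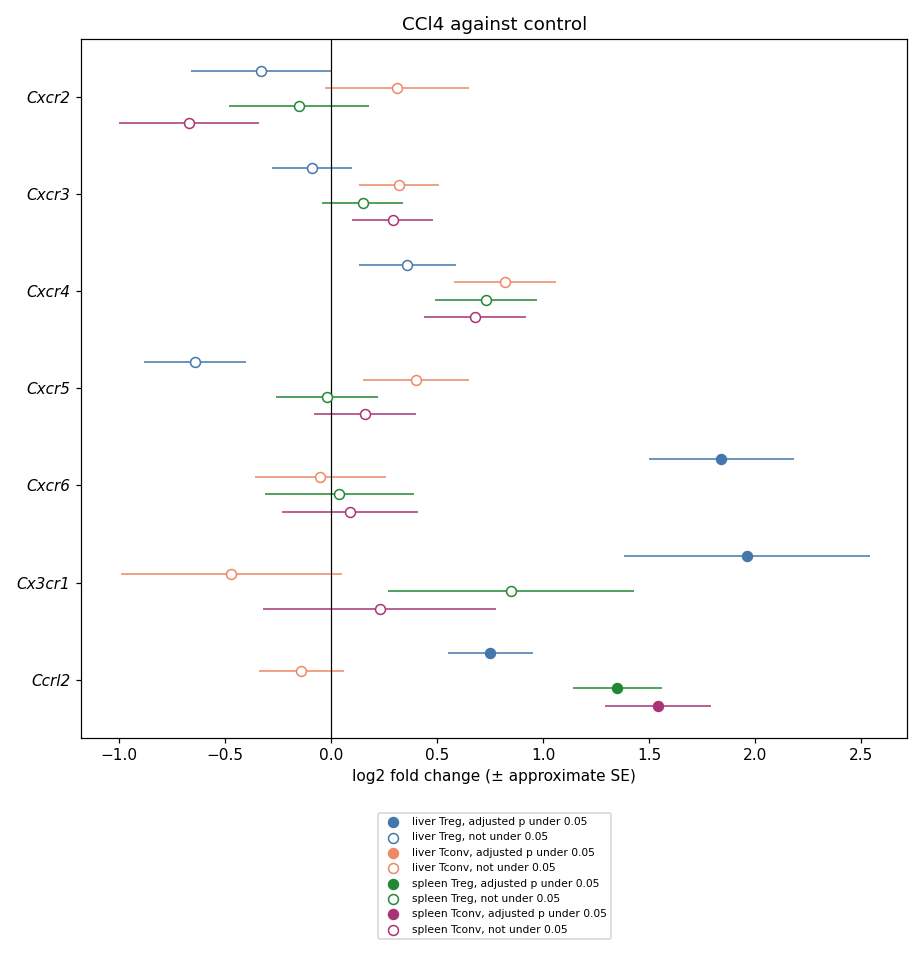
Log2 fold change of each receptor gene after CCl4 in the 4 populations, with approximate standard errors as bars. Filled points have an adjusted p under 0.05: Cxcr6 (1.84), Cx3cr1 (1.96) and Ccrl2 (0.75) in liver Treg, and Ccrl2 in spleen Treg (1.35) and spleen Tconv (1.54).

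Cxcr4 was higher after CCl4 in all 4 populations on average, and the main edgeR fit, of all libraries without a block, called it in none. In liver Tconv it was at 84.2, 73.9 and 92.3 CPM in controls and at 131, 170.0, 164, 124 and 146 CPM after CCl4. These values did not overlap, but the test did not call them (log2 fold change 0.82, SE 0.24, adjusted p = 0.129), while limma-voom (adjusted p = 0.0204), DESeq2 (0.0262) and a fit with sample number as a block (0.0362) did, within a range of 0.0204 to 0.32 over 17 alternatives. That block ties control and CCl4 libraries of the same number, a link the labels do not state, so its calls carry little weight for CCl4 effects. The log2 fold change was 0.36 in liver Treg (SE 0.23), 0.73 in spleen Treg (SE 0.24) and 0.68 in spleen Tconv (SE 0.24), each with overlapping values. In spleen Treg, DESeq2 (0.75, adjusted p = 0.0415) and the block (0.86, adjusted p = 0.0329) called it. These were 2 of 18 alternatives, with log2 fold changes from 0.45 to 0.89. In spleen Tconv the block (0.83, adjusted p = 0.0372) and the fit without control 1 (1.05, adjusted p = 0.0203) did, 2 of 18 alternatives (0.15 to 1.05). That last fit leaves only the spleen Tconv controls of low Fos. In spleen Treg, control 1 was at 20.9 CPM, the low-Fos controls at 12.9 and 17.8, and the CCl4 mean at 28.6. In spleen Tconv these were 27.6, 11.9 and 17.4, and 30.5 CPM. Per1, the clock and glucocorticoid response gene, was called in both spleen populations after CCl4 (1.00 in Treg, adjusted p = 0.0119, and 0.96 in Tconv, adjusted p = 0.0135), among 2 of 10 glucocorticoid and hypoxia genes that rose in spleen Treg and 1 of 10 in spleen Tconv. Both comparisons use the spleen controls of low Fos, and Per1 is not given here without them.

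Cxcr5 in liver Treg was at 24.9, 27.4 and 38.1 CPM in controls and at 19.1, 19.1, 16.7, 15.7 and 25.7 CPM after CCl4. A single treated library reached into the control range, and the difference was not called (-0.64, SE 0.24, adjusted p = 0.0716), although 5 of 17 alternatives called it, within a range of 0.0172 to 0.333. These were a filter at a mean of 5 CPM, DESeq2, the block by sample number, a fit of the compared libraries alone and leaving out CCl4 library 5. In the other 3 populations the Cxcr5 difference lay between -0.02 and 0.40 with no call. Of the 12 follicular helper genes, 3 rose and 4 fell in liver Treg (median -0.41, against -0.00 over all genes). Among them Slamf6 (-1.02), Btla (-0.93) and Sh2d1a (-0.88) fell and Pdcd1 (1.63), the inhibitory receptor PD-1, rose. Cxcr2 was called in no population, with values from 0.327 to 2.26 CPM over all libraries. Cxcr3 was not called in liver Treg (-0.09, SE 0.19), liver Tconv (0.32, SE 0.19), spleen Treg (0.15, SE 0.19) or spleen Tconv (0.29, SE 0.19).

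Among the ligands of these receptors, neutrophil-attracting Cxcl2, Cxcl3 and Cxcl5 rose in liver Treg after CCl4. Cxcl5 had the largest adjusted p of the 3 (log2 fold change 2.84, SE 0.86, adjusted p = 0.0228), and its level is not given here. Of 13 listed ligands 12 were tested, and 3 rose and 0 fell in liver Treg (median log2 fold change 1.27, against -0.00 over all genes), with none called in liver Tconv, 1 in spleen Treg and 1 in spleen Tconv. Cxcl2 went from 26.7 ± 9.85 to 184 ± 53.1 CPM in liver Treg (2.78, SE 0.44, adjusted p = 4.38e-05) and Cxcl3 from 3.11 ± 0.746 to 25.4 ± 8.08 CPM (3.02, SE 0.39, adjusted p = 1.95e-06), while Cxcr2, the receptor for both, was at 0.908 to 2.26 CPM there. The 12 neutrophil markers summed to 24 to 46.3 CPM in control liver Treg and 29.4 to 41.9 CPM after CCl4, with Camp at 0 in the controls and Elane at 0 after CCl4. The effect of CCl4 in liver Treg differed from that in liver Tconv for Cxcl2 (4.13, SE 0.68, adjusted p = 0.000378) and Cxcl3 (3.65, SE 0.51, adjusted p = 4.17e-05). Against spleen Treg it was called larger for Cxcl3 (2.63, SE 0.52, adjusted p = 0.00222) and lower for Cxcl10 (-1.87, SE 0.45, adjusted p = 0.0114), but not for Cxcl2. Cxcl2 also rose in spleen Treg (2.16, SE 0.49, adjusted p = 0.0248). The spleen Treg controls include those of low Fos, and no value without them is given here. Cxcl16, the ligand of Cxcr6, averaged 7.13 ± 2.31 CPM in liver Treg of controls and 8.03 ± 1.59 CPM after CCl4, without a call. Cxcl10, a ligand of Cxcr3, rose in spleen Tconv from 1.82 ± 0.63 to 6.81 ± 2.1 CPM (1.86, SE 0.37, adjusted p = 0.0125). Its controls include those of low Fos, and it is not given here without them.

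Between tissues, 10 of 12 ligands were higher in liver and 0 lower, in Treg (median 2.65, against 0.04 over all genes) and in Tconv (median 2.69, against 0.04). Cxcl16 exceeded its spleen level by 2.56 in Treg (SE 0.26) and 2.05 in Tconv (SE 0.26). Hepatocyte markers, which T cells are not known to express, summed to 129 to 560.3 CPM in liver libraries and 3.45 to 32 CPM in spleen libraries. Their part in the ligand levels was not tested.

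Of 17 other chemokine receptors listed, 15 were tested. After CCl4 in liver Treg, 2 rose and 3 fell: Ccr8, a receptor of tissue Treg, went from 225 ± 19 to 736 ± 118 CPM (1.71, SE 0.23, adjusted p = 4.45e-06), while Ccr7, the receptor for homing to lymph nodes (-1.56), and Ccr10, a receptor for skin and mucosal chemokines (-2.19) fell. Cxcr1 also fell, from a mean of 0.059 CPM in controls to 0 in all 5 CCl4 libraries, too low for a fold change. The other receptor that rose was not among the 4 genes of smallest adjusted p and is not named here. Ccr8 also rose in spleen Treg (1.09, SE 0.23, adjusted p = 0.0146), where the controls include those of low Fos and no value without them is given here. None of the 15 was called in either Tconv population. Liver exceeded spleen in 11 of 15 in Treg and 12 of 15 in Tconv, with 0 lower in both, where 60.6% and 55.0% of all genes were called in either direction. The median log2 fold change of the list was 1.86 in Treg and 1.41 in Tconv, against 0.04 over all genes in both.

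Of 33 genes for G proteins, receptor kinases, arrestins, RGS proteins and motility effectors, 4 rose and 4 fell in liver Treg after CCl4 (median 0.03, against -0.00). Pik3r5, a subunit of the G protein-coupled phosphoinositide kinase, fell by 0.86 on the log2 scale, Grk6, a receptor kinase, by 0.48, and Dock2, an activator of Rac, by 0.45. In the list of 15 tissue residence and egress genes, 2 rose and 6 fell (median -0.75, against -0.00). S1pr1, the egress receptor (-1.32), and Klf2, the factor that sustains it (-0.83), were lower in the same libraries in which Cxcr6 was higher. Between tissues this was not so: Klf2 was higher in liver, as Cxcr6 was (0.57 in Treg, 1.28 in Tconv), and so was S1pr1 in Tconv (0.89). Of the 15 genes, 7 were higher and 2 lower in liver Treg (median 0.29), and 11 higher and 2 lower in liver Tconv (median 0.92), against 0.04 over all genes.

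The genes with the pattern most like each receptor over the 32 libraries are given by Pearson r of log2 CPM, among genes whose mean reached 5 CPM. Libraries of a group share tissue, cell type and treatment, so r describes the pattern of the groups. Cxcr4 lay closest to Per1 (r = 0.97), Rab5a (0.96) and Ifrd1 (0.96). Ccrl2 lay closest to Dusp4, a phosphatase of the mitogen-activated kinases (0.98), Nfil3 (0.98) and the Treg inhibitory receptor Ctla4 (0.97). Cxcr6 lay closest to Pde4d (0.94), Sytl3 (0.93) and Il7r, the interleukin 7 receptor (0.93). Cxcr5 lay closest to Tmem173 (0.96), Mgat1 (0.95) and Sigirr (0.94), and Cxcr3 to Lgals3 (0.90), Hmgb2 (0.89) and Gapdh (0.89). Cx3cr1 lay closest to Zeb2, a transcription factor of effector cells (0.87), Sytl3 (0.85) and Plek (0.85). Cxcr2, at 0.327 to 2.26 CPM, reached 0.81 with Psg16, Dclre1c and Vmn2r114.

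After the group means were removed, the same measure gave other genes. Cxcr3 then lay closest to Tbx21 (r = 0.84), Gimap7 (0.84) and Glmp (0.82), Cxcr6 to Ccr2 (0.88), Irf5 (0.80) and Sytl3 (0.79), and Ccrl2 to Nfkbiz (0.90), Gadd45b (0.87) and Nfkbia (0.86), of which Nfkbiz and Nfkbia encode regulators of NF-kB. Cxcr4 lay closest to Tsc22d3, a glucocorticoid response gene (0.85), P2ry10 (0.84) and Dnajb4 (0.78), and Cxcr5 to Abca2 (0.82), Hip1r (0.79) and Sptan1 (0.78). The values for Cx3cr1 (Mrgpre and Mapk3, 0.72, Rad54l, 0.71) and Cxcr2 (Brd3, 0.67, Trim12c and Crebrf, 0.66) were lower. Within groups, libraries high in Cxcr6 were high in Cxcr3 (r = 0.58) and Cx3cr1 (0.58), and those high in Cxcr4 were low in Cxcr5 (-0.57) and Cxcr3 (-0.54). In liver Tconv, for example, control 2 held the highest Cxcr6 (745 CPM), Cx3cr1 (17.7 CPM) and Tbx21 (316 CPM) of the 3 controls and the lowest Cxcr4 (73.9 CPM). The CCl4 libraries there followed this in part. Library 1 held their highest Cxcr6 (712 CPM) and Tbx21 (283 CPM), but not their highest Cx3cr1 (5.84 CPM) or lowest Cxcr4 (131 CPM). These within-group values contain the low-Fos spleen controls, which share their deviation.

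The genes lie on GRCm38 as follows in the GENCODE M21 annotation. Ccrl2 (ENSMUSG00000043953.12), Cxcr6 (ENSMUSG00000048521.8), Cx3cr1 (ENSMUSG00000052336.7) and Cxcr5 (ENSMUSG00000047880.15) are on chromosome 9, at chr9:111054486-111057519, chr9:123806475-123811760, chr9:119901616-120069879 and chr9:44511787-44561877. Cxcr2 (ENSMUSG00000026180.8) and Cxcr4 (ENSMUSG00000045382.6) are on chromosome 1, at chr1:74153989-74161246 and chr1:128588199-128592293, and Cxcr3 (ENSMUSG00000050232.6) is at chrX:101731535-101734269. Cxcr5 shares 110 exon bases with Bcl9l and Cx3cr1 shares 78 with the antisense gene Gm33858, both on the opposite strand, and the cDNA kit named in the labels does not mark strand, so reads from those bases cannot be told apart. Cxcr6 lies within Fyco1 on the opposite strand and shares no exon base with it.

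For most receptors a single transcript held the bulk of the estimated counts: Cxcr6-201 95.0%, Cxcr5-201 94.8%, Cxcr4-201 85.1%, Ccrl2-203 75.0% and Cx3cr1-202 68.4% over all libraries. Of these, Cxcr5-201 has 0 exon bases that no other transcript of its gene holds and Cxcr6-201 has 24, so their shares are uncertain. Ccrl2-203, whose start lies at the edge of the window shown above, held 79.1 ± 6.83% of Ccrl2 TPM in control and 77.1 ± 1.93% in CCl4 liver Treg, so its share stayed within the replicate spread while the gene rose. All Cxcr2 counts went to Cxcr2-202, of whose 3046 exon bases 828 are in no other Cxcr2 transcript. Cx3cr1-202 held 11.1 ± 15.0% of Cx3cr1 TPM in control liver Treg and 52.1 ± 23.1% after CCl4, but it has 12 exon bases of its own, so its split from the other transcripts rests on few reads.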

How the data were processed

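RNA of sorted T cells was measured in 32 libraries of 8 groups, taken from the sample titles. Per the submitters' processing notes, bcl2fastq 2.19, kallisto 0.44.0 and DESeq2 were used with GRCm38.p6. The deposited tables give estimated counts and TPM per transcript, as the authors made them, and the strand setting is not given in the sources used here. Both were summed per gene by GENCODE M21, and 1761 of 118489 transcripts (0.684 to 0.823% of counts) matched no gene and were left out. Estimated counts were rounded, filtered with filterByExpr (17159 genes kept), scaled by TMM (factors 0.923 to 1.07) and fitted with edgeR 4.0.16's quasi-likelihood test in R 4.3.3, with 1 mean per group and 24 residual degrees of freedom. Adjusted p-values are Benjamini-Hochberg over all genes tested, called under 0.05, and approximate SEs were obtained from each log2 fold change and its F statistic (change / square root of F). Liver, spleen, Treg and Tconv comparisons average both treatments. Groups do not overlap there where they do not within either treatment. Scripts were tested on simulated data. Alternatives used limma 3.58.1, DESeq2 1.42.0, other filters, scalings and left-out libraries. Members and gene lists were chosen with earlier results of these data known. All 7 receptors are described, and of each gene list up to 4 called genes of smallest adjusted p were eligible to be named per comparison. Genes such as Fos were named with their values known.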

Additional observations from a re-analysis of the deposited data

Results flagged for a closer look

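Of 28 groups tested for a library far from the rest, 1 had such a library, and chance gives about 1 in 20. Ccrl2 in spleen Treg after CCl4 was at 55.9 CPM in library 4 and at 46.7 to 48.6 CPM in the other 4 libraries, a gap of 0.798 of the range.

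Of 35 tests of whether an effect differed between cell types or tissues, 5 were called by edgeR. For CCl4 effects, 3.65% of all genes passed between liver Treg and liver Tconv and 5.48% between liver Treg and spleen Treg. Between liver Tconv and spleen Tconv 0.0874% passed, and between the spleen cell types 0%. For the tissue difference between cell types, 19.4% did. The effect of CCl4 on Cxcr6 was larger in liver Treg than in liver Tconv (difference in log2 fold change 1.89, adjusted p = 0.0129) and than in spleen Treg (1.80, adjusted p = 0.0232). The effect of CCl4 on Ccrl2 was smaller in liver Tconv than in spleen Tconv (-1.68, adjusted p = 0.0276). The liver and spleen difference was smaller in Treg than in Tconv for Ccrl2 (-0.94, adjusted p = 0.00158) and for Cxcr3 (-0.73, adjusted p = 0.00612). Several of these calls ended in alternatives, as given above. Without the spleen controls of low Fos, the Cxcr6 contrast with spleen Treg was 1.85, the Ccrl2 contrast of CCl4 effects -1.03 and the Cxcr3 contrast -0.71.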

How the results depend on the processing

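Over 91 receptor results and 2270 alternatives, 2173 kept direction and side of the threshold, 48 became called, 48 lost the call and 1 reversed: Cx3cr1 in Treg against Tconv of liver, at 0.21 with CCl4 libraries alone. Receptors called went from 0 to 1 in liver Tconv after CCl4 with limma-voom, DESeq2 or the replicate block by sample number. In spleen Treg they went from 1 to 2 with DESeq2 or the replicate block and to 0 without spleen controls 2 and 3. In spleen Tconv they went from 1 to 2 with the replicate block, to 0 with limma-voom, with these libraries alone and without spleen controls 2 and 3, and ranged from 0 to 2 with 1 library left out. For Treg against Tconv, 5 became 2 in liver with CCl4 libraries alone (3 to 5 with 1 library left out) and 3 in spleen without spleen controls 2 and 3. For the difference of CCl4 effects, 1 became 2 (limma-voom, replicate block) or 4 (DESeq2) between liver Treg and liver Tconv (0 to 3 with 1 library left out). Between liver Treg and spleen Treg it became 0 without spleen controls 2 and 3 (0 to 2 with 1 library left out), and between liver Tconv and spleen Tconv 0 with limma-voom or without those controls (0 to 1). For the tissue difference between cell types, 2 became 1 with control libraries alone or without those controls, and 3 with limma-voom, DESeq2, length offsets, the 5 CPM filter, either replicate block or CCl4 libraries alone. The cause was not tested. The labels do not say what a sample number shares, and as 29 of 48 same-number pairs had r of deviations over 0.1 (-0.0726 to 0.48), not all, the numbers were not taken as pairs. The median r was 0.115, against -0.0382 for 156 other pairs, all 3 pairs passed between spleen Treg and spleen Tconv controls and between liver Treg and spleen Treg controls, and 76 of 96 comparisons were best with the own number, a hint from the data and not from the design. With 3 controls per group, differences near the threshold rest on single libraries, and Cxcr2 and Cx3cr1 on few reads.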
